A study of Homo sapiens with 65 samples.

Results

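Gene expression was compared at day 2.5 between left-ventricular cardioids given hyaluronidase from day 1.5 to day 2.5 and untreated cardioids of the same day. The comparison was formed from the sample titles and holds 6 of the 65 libraries of the series, 3 per group. Both groups were WTC-11 human induced pluripotent stem cells, and the labels name 3 lines, TNNI1 (replicate 1), WT (replicate 2) and TNNT2 (replicate 3), so that each treated library has an untreated library of its own line. None of the 3 carries a HAS2 knockout label, and the labels do not say how TNNI1 and TNNT2 differ from WT. Both groups were reseeded at day 1.5 into ultra-low-attachment plates and kept in a patterning medium with BMP4, FGF2, insulin, C59 and retinoic acid, with a ROCK inhibitor during the first day, so the enzyme was present during the day on which aggregates formed. Each library pooled 8 cardioids, and all 3 lines come from 1 parental cell line. The dose and source of the enzyme are not given in the sources used here.

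Hyaluronan is a long, unbranched sugar polymer that cells extrude at their surface through a synthase in the plasma membrane. In the early heart it fills the cardiac jelly between the muscle layer and the endocardium and holds water in the matrix. Mouse embryos without Has2, the main synthase of the heart, lack cardiac jelly and die in midgestation. Hyaluronidase cuts the finished polymer, so it removes hyaluronan without altering the gene that makes it. In cardioids the interval studied spans the passage from nascent, MESP-expressing mesoderm to cardiac mesoderm, in which TBX5 and HAND1 come on before contractile genes are abundant.

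The libraries were read by a 3′ mRNA method, in which each transcript gives reads near its end. Levels are given as CPM, which is a gene's share of the library's counts times 1000000, always in the order TNNI1, WT, TNNT2, and compare 1 gene between libraries, not genes with each other. Total counts in the 6 libraries were 1118200 to 1958263 (median 1529106). A gene was called when its Benjamini-Hochberg adjusted p in edgeR's quasi-likelihood test, over 12748 tested genes, was under 0.05. Fold changes are log2 values of hyaluronidase over untreated. Their standard error (SE) is the absolute fold change divided by the square root of the test's F statistic, so it is approximate. The interval given for HAS2 rests on it as well. The words rose and fell are kept for called genes. The treated library of the WT line stood apart. Its counts differed from those of the other 2 treated libraries by a chi-square per degree of freedom of 11.9 and 13.7 (counting error alone gives about 1), against 3.07 between those 2 and 2.80 to 8.28 among untreated libraries, and 1.41% of its counts were mitochondrial, against 0.396% to 0.844% in the other 5. The labels do not say whether the replicates of different lines were grown on different days, so p-values measure the spread between these libraries.

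After 1 day of hyaluronidase 146 genes were called (1.15% of those tested), of which 114 fell (0.894%) and 32 rose (0.251%). All 146 had the same sign in all 3 lines, and the 2 groups did not overlap for 113 of the lower and 31 of the higher genes, where 13.5% of all tested genes had groups apart. The calls were made on these same libraries, so the common sign and the separation follow largely from the selection and are not separate evidence. An unadjusted p under 0.05 was reached by 1175 genes (9.22%). Without the treated WT library 225 genes were called (172 lower, 53 higher), and without the treated TNNI1 or TNNT2 library 61 and 75. Without the untreated library of TNNI1, WT or TNNT2 the count was 147, 94 and 77, and with line as a block it was 228, including all 146. A fit of only the 6 libraries called 90 genes, 67 of them among the 146, and one without both TNNT2 libraries called 24, all among the 146. Of the called genes described below, ACTC1, AFAP1L2, CDCA7L, CDH3, DHRS3, ETV1, ETV5, EXPH5, FGD5, FOXP1, FZD4, GRIN2A, LLGL2, MEIS1, MIR210HG, NCAM1, PARD3B, PARD6B, PDGFRA, RARB, ROBO1, TBX2, TMEM88, TPM1 and VIM lost their call in the fit of only the 6 libraries. TBX5, LAMA1, EMP2, SEMA3C, FYB2, ICA1, MATN2, PKP2, SLC30A3 and ANKRD33B passed in every alternative fit that tested them. 0 of the 146 genes changed sign in any of the alternative fits. Across the lines, the median log2 ratio of the 114 lower genes was −1.89 in TNNI1, −1.54 in WT and −2.01 in TNNT2.

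**Figure D1:**
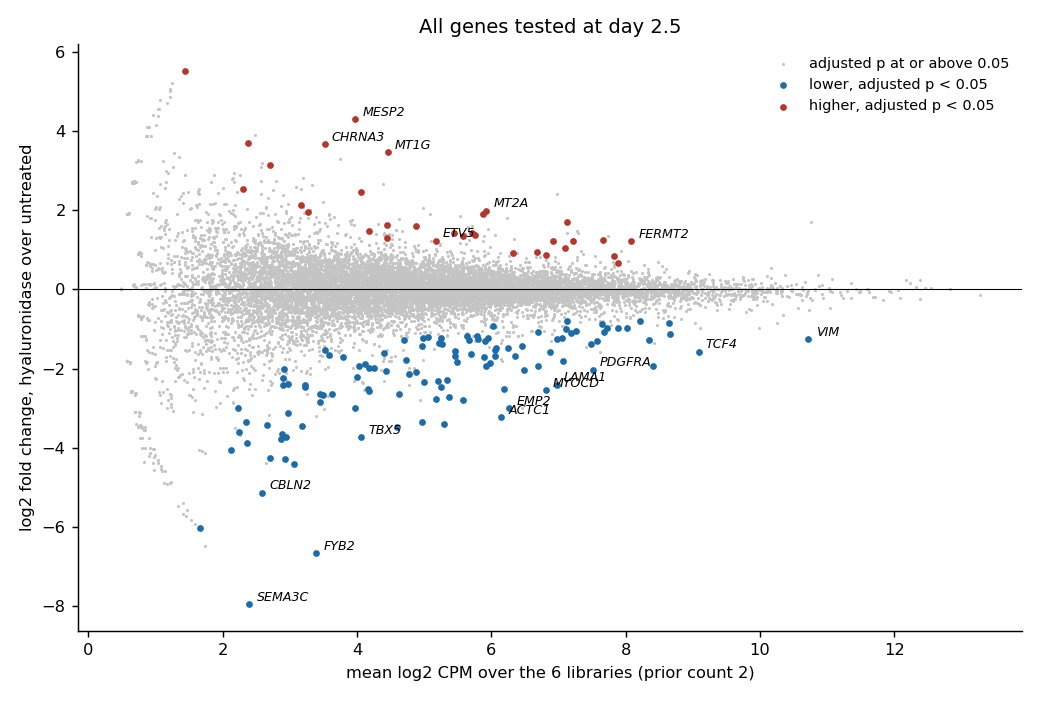
Log2 fold change of hyaluronidase over untreated (vertical) against the mean log2 CPM over the 6 libraries (horizontal) for each tested gene at day 2.5. The 114 called lower genes (blue) outnumber the 32 called higher genes (red) and reach larger sizes, down to SEMA3C.

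Of 21 tested transcription factors of the cardiac lineage, 4 fell and 0 rose. The median log2 fold change of this list was −0.72, where the median of all tested genes was 0. Of all tested genes 0.894% were called lower and 0.251% higher, and the counts of this and the later lists are to be read against these shares. TBX5 (ENSG00000089225, chromosome 12, 114353931 to 114408442), the T-box factor of the left ventricular lineage, had 45.4, 59 and 46.5 CPM in untreated and 2.75, 7.19 and 1.87 CPM in treated libraries. The groups were far apart in every line, and TBX5 was 13.4-fold lower with hyaluronidase (−3.74 ± 0.43 SE, edgeR adjusted p 2.7e-05). GATA6, a zinc finger factor of heart and endoderm, had 81.2, 108 and 103 CPM in untreated and 37.7, 28.8 and 25.6 CPM in treated libraries and also fell (−1.70 ± 0.29 SE, edgeR adjusted p 0.00149). Both calls held in all 6 fits that left out 1 library, but that of GATA6 was lost without both TNNT2 libraries (edgeR adjusted p 0.0962). GATA6-AS1 overlaps GATA6 on the other strand.

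FOXP1, a forkhead repressor used in heart development, had 165, 228 and 209 CPM in untreated and 29.5, 96.7 and 35 CPM in treated libraries (−1.94 ± 0.32 SE, edgeR adjusted p 0.00147). Its treated WT library was the highest of the 3 and still lay below every untreated one. The FOXP1 call was lost in the fit of only the 6 libraries (edgeR adjusted p 0.0857) and without both TNNT2 libraries (0.0792). TBX2, a T-box repressor of the atrioventricular canal, had 17.9, 42.9 and 62.8 CPM against 2.06, 11.2 and 8.74 CPM (−2.53 ± 0.61 SE, edgeR adjusted p 0.0417) and was lowest in TNNI1 in both groups. The TBX2 call was lost in 5 of the 6 fits without 1 library, all except that without untreated TNNI1 (edgeR adjusted p up to 0.283).

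Other cardiac factors were not called. HAND1 had 396, 748 and 888 CPM in untreated and 287, 1248 and 319 CPM in treated libraries, so the treated WT library was the highest of all 6 and the other 2 treated ones the lowest. NKX2-5 had 35.2, 46.5 and 57.2 against 16.5, 43.9 and 28.1 CPM and ISL1 95, 79.6 and 87.5 against 55.6, 83.1 and 77.4 CPM, with overlapping groups in each. HAND2 (−1.25) and GATA4 (−0.56) had unadjusted p values of 0.00851 and 0.0242 in edgeR and did not pass after adjustment. The number of cardiac factors called lower was 6 of 22 without treated WT (median −1.5), 3 of 22 without treated TNNI1 (median −0.58) and 3 of 22 without treated TNNT2. It was 1 of 21 without both TNNT2 libraries. In the fit of only the 6 libraries 2 of 19 were called lower and 0 higher, and with line as a block in those 6 libraries 4 lower and 1 higher.

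Among regulators outside that list, the following were named after their values were seen. MYOCD, the coactivator through which serum response factor (SRF) drives heart and smooth muscle genes, had 211, 299.6 and 304 CPM in untreated and 20.6, 87.1 and 35.6 CPM in treated libraries (−2.55 ± 0.43 SE, edgeR adjusted p 0.0023). MEIS1, a homeodomain cofactor, had 112, 156 and 96.4 against 13, 63.9 and 25.6 CPM (−1.86, edgeR adjusted p 0.00452), and TMEM88, a membrane protein that dampens WNT signalling in cardiac progenitors, 167, 268 and 321 against 34.3, 131 and 56.8 CPM (−1.80, edgeR adjusted p 0.0278). In all 3 genes the treated WT library had the highest level of the treated group. MYOCD passed in every fit without 1 library and lost its call without both TNNT2 libraries (edgeR adjusted p 0.117). MEIS1 passed in all fits without 1 library but that without treated TNNT2 (edgeR adjusted p 0.0542). TMEM88 lost its call in 4 of 6, those without treated TNNI1 or TNNT2 or without untreated WT or TNNT2 (edgeR adjusted p up to 0.181).

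**Figure D2:**
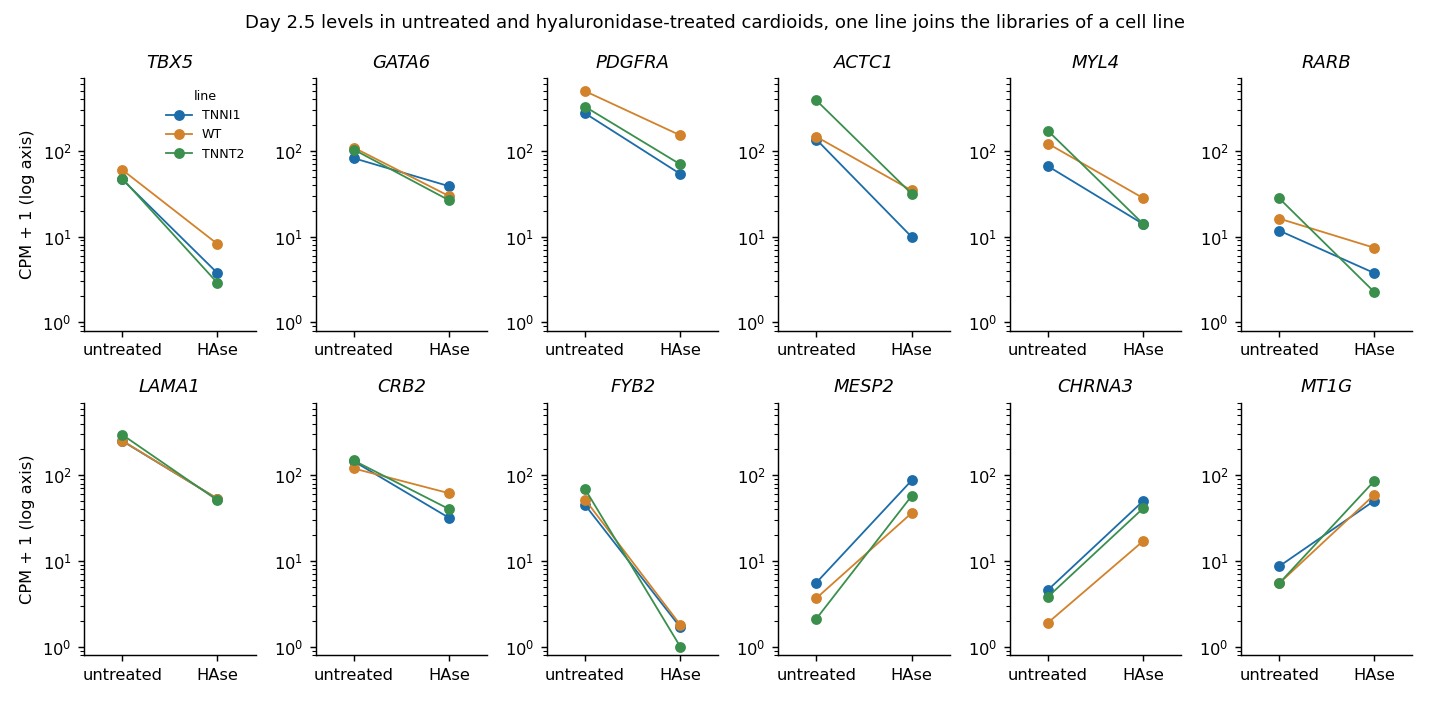
CPM + 1 on a log axis for 12 genes in the untreated and hyaluronidase (HAse) libraries, with 1 segment per cell line (TNNI1 blue, WT orange, TNNT2 green). TBX5, GATA6, PDGFRA, ACTC1, MYL4, RARB, LAMA1, CRB2 and FYB2 are lower and MESP2, CHRNA3 and MT1G higher in all 3 treated libraries than in any untreated one.

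Of 17 tested sarcomere genes, which are only starting at this stage, 3 fell and 0 rose, 12 had a negative and 4 a positive sign, and the median log2 fold change was −1.94. Without treated WT 3 of 17 were called lower (median −2.61), without treated TNNI1 0 (median −1.66), without treated TNNT2 or untreated TNNT2 1 each (medians −1.37 and −1.72) and without both TNNT2 libraries 0 (median −1.29). With all libraries 8 had an unadjusted p under 0.05 in edgeR, and DESeq2 called 6. ACTC1 (ENSG00000159251, chromosome 15, 34788095 to 34795726), the cardiac alpha-actin, had 134, 145 and 386 CPM in untreated and 8.92, 33.6 and 30.6 CPM in treated libraries. ACTC1 was 9.40-fold lower (−3.23 ± 0.60 SE, edgeR adjusted p 0.00605), with the lowest value in the treated TNNI1 library. MYL4, an embryonic and atrial myosin light chain, had 65.4, 121 and 171 against 13, 27.2 and 13.1 CPM (−2.80 ± 0.58 SE, edgeR adjusted p 0.0175), and TPM1, a tropomyosin, 337, 853 and 864 against 108, 312 and 126 CPM (−1.94 ± 0.41 SE, edgeR adjusted p 0.0151). For TPM1 the treated WT library lay only just below the untreated TNNI1 library. The ACTC1 call was lost without treated TNNI1 (edgeR adjusted p 0.0606), MYL4 without treated TNNI1, treated TNNT2 or untreated TNNT2 (up to 0.142), and TPM1 in every fit but those without treated WT or untreated TNNI1 (up to 0.124).

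The ACTC1 promoter is shown because ACTC1 and MYL4 fell together with MYOCD, whose partner SRF binds the CArG box. Whether MYOCD or SRF had a part in these decreases was not tested. The 250 bases upstream of 1 of 3 RefSeq ACTC1 starts on GRCh38.p14 (chr15:34795550-34795799, minus strand, written 5′ to 3′ along the gene) hold 1 CArG box, in capitals, 109 to 100 bases before the start. The motif searched was CC, then 6 letters that are each A or T, then GG, on both strands, and 1.17% of 34788 promoter windows of this length hold it. A match describes the sequence and is not evidence of binding.
ACTC1: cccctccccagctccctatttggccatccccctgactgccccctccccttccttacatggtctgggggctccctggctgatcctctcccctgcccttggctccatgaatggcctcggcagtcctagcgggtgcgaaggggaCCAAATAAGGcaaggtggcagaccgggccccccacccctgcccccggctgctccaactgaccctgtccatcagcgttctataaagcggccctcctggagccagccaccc

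Other contractile genes were not called. MYL7, an atrial light chain, had 141, 237 and 317 CPM in untreated and 30.9, 34.4 and 23.7 CPM in treated libraries, with groups apart in all lines but an edgeR adjusted p of 0.0611. TNNT2, cardiac troponin T, had 5.11, 8.94 and 11.8 against 0.686, 0 and 1.25 CPM, and MYH6 3.57, 10.7 and 2.24 against 0, 0 and 0 CPM. The summed level of the 4 cardiomyocyte markers TNNT2, MYH6, MYL7 and ACTN2 was 152 to 331 CPM in untreated and 25.0 to 34.4 CPM in treated libraries. In pooled cardioids fewer cells of a type and less transcript per cell cannot be told apart. PKP2 and DSC2, an inner plate protein and a cadherin of the desmosomes that join heart muscle cells, were named after their values were seen. PKP2 had 31.2, 41.1 and 40.4 against 4.80, 7.99 and 1.87 CPM (−3.00 ± 0.37 SE, edgeR adjusted p 3.99e-05), a gap wider than the spread of either group, and DSC2 had 202, 186 and 156 against 78.9, 90.3 and 107 CPM (−1.01, edgeR adjusted p 0.00426, and 0.0588 without treated TNNI1).

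Retinoic acid was in the medium of both groups, and 2 of the 15 tested genes of the retinoid pathway fell while 0 rose (median −0.87). In the fit of only the 6 libraries, which tested 9 of them, 0 were called and the median was 0.25 (−0.04 with line as a block), and 0 of 15 were called without treated TNNI1 or without treated TNNT2. With all libraries 4 of the 15 had an unadjusted p under 0.05 in edgeR, and DESeq2 called 2. RARB (ENSG00000077092, chromosome 3, 25174332 to 25597932), a retinoic acid receptor whose gene is itself induced by retinoic acid, had 10.7, 15.2 and 26.9 CPM in untreated and 2.75, 6.39 and 1.25 CPM in treated libraries. RARB was 5.36-fold lower with hyaluronidase (−2.42 ± 0.48 SE, edgeR adjusted p 0.00695). DHRS3, an enzyme that returns retinaldehyde to retinol and is also induced by retinoic acid, had 68.9, 101 and 70.1 against 16.5, 38.3 and 14.4 CPM (−1.83 ± 0.36 SE, edgeR adjusted p 0.00605). In both genes the groups were apart and the treated WT library was the highest treated one. HOXB2, a HOX gene that responds to retinoic acid, had 9.70, 11.6 and 3.93 against 0.686, 2.40 and 1.25 CPM, also apart, but an edgeR adjusted p of 0.129. CYP26A1, which degrades retinoic acid, had 14.8, 5.37 and 4.49 against 22.6, 8.79 and 11.9 CPM, with overlapping groups. The RARB call was lost without treated TNNI1, treated TNNT2 or untreated TNNT2 (edgeR adjusted p up to 0.106) and the DHRS3 call without treated TNNI1 or TNNT2 (up to 0.0756), and RARB overlaps TOP2B on the other strand.

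The RARB promoter is shown because it carries a DR5 retinoic acid response element, the kind of site on which retinoic acid receptors act. The 250 bases upstream of 1 of 4 RefSeq RARB starts on GRCh38.p14 (chr3:25428013-25428262, plus strand) hold it in capitals, 53 to 37 bases before the start. The motif searched was a pair of half-sites in the same orientation and 5 bases apart, each AGGTCA or that word with G as the first base or T as the third, on either strand, and 0.0747% of 34788 windows hold it. Counts at the 3′ end do not tell which start was used.
RARB: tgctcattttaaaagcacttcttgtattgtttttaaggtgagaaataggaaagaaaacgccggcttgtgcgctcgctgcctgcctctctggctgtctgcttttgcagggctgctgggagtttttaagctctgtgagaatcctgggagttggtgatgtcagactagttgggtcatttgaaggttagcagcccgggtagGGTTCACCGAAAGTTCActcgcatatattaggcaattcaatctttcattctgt

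Of 22 tested genes of adhesion, polarity and epithelial to mesenchymal transition, 4 fell and 0 rose (median −0.44). The count was 5 of 22 without treated WT, 2 of 22 without treated TNNI1, 2 of 23 without treated TNNT2 and 0 of 23 without both TNNT2 libraries, while 10 of 22 had an unadjusted p under 0.05 in edgeR with all libraries and DESeq2 called 4. CRB2, an apical polarity protein needed for cells to leave the primitive streak, had 145, 119 and 147 CPM in untreated and 30.9, 60.7 and 39.3 CPM in treated libraries (−1.69 ± 0.29 SE, edgeR adjusted p 0.00162). PARD6B, a scaffold of the PAR polarity complex, had 41.9, 44.7 and 44.9 against 20.6, 12.8 and 23.7 CPM (−1.23, edgeR adjusted p 0.0434), and CDH3, P-cadherin, 27.6, 25.9 and 29.7 against 11, 3.99 and 6.87 CPM (−1.95, edgeR adjusted p 0.00938). Untreated levels of PARD6B and CDH3 were nearly equal in the 3 lines and every treated library was lower. VIM, the filament protein vimentin, had 1747, 2674 and 3016 CPM against 868, 1379 and 937 CPM (−1.26 ± 0.23 SE, edgeR adjusted p 0.00381). The 4 called members are thus both epithelial and mesenchymal genes. CDH2, N-cadherin, had 225, 179 and 315 against 229, 161 and 244 CPM and overlapping groups.

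PARD3B and LLGL2, a PAR3 homologue and a basolateral polarity protein chosen after their values were seen, had 19.4, 40.2 and 40.9 against 7.55, 7.99 and 9.99 CPM (−1.99, edgeR adjusted p 0.00465) and 34.2, 32.2 and 32 against 15.1, 6.39 and 11.2 CPM (−1.61, edgeR adjusted p 0.0174). The PARD6B call was lost in all 6 fits without 1 library (edgeR adjusted p up to 0.17), that of CDH3 without treated TNNT2 (0.0705) and that of VIM without treated TNNI1 (0.0523). The CRB2 call held in all 6 and was lost without both TNNI1 or both TNNT2 libraries (edgeR adjusted p up to 0.0987). DENND1A lies over CRB2 on the opposite strand, which makes the CRB2 count uncertain.

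In the matrix, 1 of 37 tested genes of basement membranes, collagens and integrins fell and 0 rose (median −0.26, with 3 of 37 lower without treated WT and 1 of 37 in each other fit without 1 library). With line as a block 3 of 37 were called lower and 1 higher. LAMA1 (ENSG00000101680, chromosome 18, 6941744 to 7117814), the alpha chain of laminin-111, the first laminin of the embryo, had 249.7, 252 and 296 CPM in untreated and 52.2, 51.9 and 50.0 CPM in treated libraries. The 3 lines gave almost the same levels on each side, and LAMA1 was 5.31-fold lower (−2.41 ± 0.24 SE, edgeR adjusted p 2.02e-06). The other laminin-111 chains LAMB1 (−0.25) and LAMC1 (−0.55), fibronectin FN1 (0.01) and the basement membrane collagens COL4A1 (−0.59) and COL4A2 (−0.40) were not called. COL2A1, a fibrillar collagen of embryonic matrix named after its values were seen, had 122, 56.3 and 87.5 against 8.24, 12 and 6.87 CPM (−3.35 ± 0.59 SE, edgeR adjusted p 0.00359). EMP2, a tetraspan membrane protein that affects integrin trafficking and was named in the same way, had 142, 192 and 266 against 26.8, 28 and 22.5 CPM (−3.00 ± 0.30 SE, edgeR adjusted p 2.02e-06). The calls of LAMA1, COL2A1 and EMP2 held in all 6 fits without 1 library. That of COL2A1 was lost without both TNNI1 or both TNNT2 libraries (edgeR adjusted p up to 0.117).

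Genes that make, cut or bind hyaluronan itself gave no call: 0 of 10 tested genes of synthesis and breakdown and 0 of 8 of binding matrix and receptors passed edgeR's adjusted threshold, with 2 of each list under an unadjusted p of 0.05, and DESeq2 called 0 and 1. HAS2 (ENSG00000170961, chromosome 8, 121612116 to 121641390), the synthase, had 765, 1031 and 953 CPM in untreated and 647, 1762 and 682 CPM in treated libraries. The treated WT library was the highest of the 6 and the other 2 treated ones the lowest. The log2 fold change was 0.15 (95% interval −0.45 to 0.75 on 16 residual degrees of freedom, edgeR adjusted p 0.986), and −0.52 without treated WT. HAS1 and HAS3 had 0 counts in all 6 libraries. VCAN, versican, the large proteoglycan that binds hyaluronan in cardiac jelly, had 555, 650.2 and 994 against 327, 421 and 394 CPM, with groups apart and an edgeR adjusted p of 0.0802. CEMIP2, a cell-surface protein linked to hyaluronan breakdown, had 32.2, 45.6 and 35.9 against 17.2, 22.4 and 18.7 CPM, also apart (edgeR adjusted p 0.168, and 0.0456 with line as a block). CD44, a hyaluronan receptor, was at 0 to 1.12 CPM in untreated and 0 to 2.75 CPM in treated libraries, too low to be tested.

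Among receptors, PDGFRA (ENSG00000134853, chromosome 4, 54229097 to 54298247), the platelet-derived growth factor receptor of migrating mesoderm, had 273, 496 and 326 CPM in untreated and 52.8, 151 and 68.7 CPM in treated libraries. PDGFRA was lower in every line, 4.10-fold in the fit (−2.03 ± 0.35 SE, edgeR adjusted p 0.00215). Its call was lost in the fit of only the 6 libraries (edgeR adjusted p 0.0628) and without both TNNT2 libraries (0.0829). PDGFRA was the 1 called gene of 11 tested in the list of the primitive streak and nascent mesoderm, whose median was 0.61. With line as a block 1 of the 11 was called lower and 1 higher. The WNT receptor FZD4 had 112, 85.9 and 67.3 against 35.7, 51.1 and 28.7 CPM (−1.24, edgeR adjusted p 0.0214) and was the 1 gene called among 16 tested in the WNT list (median −0.32). The WNT carrier WLS and the R-spondin receptor LGR4, both named after their values were seen, had 154, 194 and 219 against 77.6, 84.7 and 84.3 CPM (−1.24, edgeR adjusted p 0.0023) and 195, 181 and 219 against 94.7, 79.1 and 109 CPM (−1.11, edgeR adjusted p 0.019). LEF1, a nuclear effector of WNT signalling, had 85.3, 155 and 172 against 11, 55.9 and 53.7 CPM and an edgeR adjusted p of 0.0552, while AXIN2, its common feedback readout, had a log2 fold change of −0.29 and was not called. FZD4 lost its call in 4 of the 6 fits without 1 library, those without treated TNNI1 or TNNT2 or untreated TNNI1 or WT (edgeR adjusted p up to 0.153), and LGR4 in those without treated TNNI1, treated WT or untreated TNNT2 (up to 0.127). FZD4 overlaps PRSS23 on the other strand.

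Of 20 tested targets of fibroblast growth factor and ERK signalling, 2 rose and 0 fell, 13 had a positive and 7 a negative sign, and the median was 0.61. The number that rose was 4 of 21 without treated WT (median 0.38), 1 of 21 without untreated TNNI1, and 0 without treated TNNI1, treated TNNT2, untreated WT or untreated TNNT2 and in the fit of only the 6 libraries. With all libraries 9 had an unadjusted p under 0.05 in edgeR, 8 of them higher, and DESeq2 called 3. With line as a block 2 of 20 were called higher and 1 lower, and in the 6 libraries with the block 1 of 19 higher and 1 lower. The 2 called genes are ETS factors that ERK induces. ETV1 had 38.3, 27.7 and 10.7 CPM in untreated and 81.7, 55.1 and 74.3 CPM in treated libraries (1.43 ± 0.31 SE, edgeR adjusted p 0.0174), and ETV5 21.4, 19.7 and 21.9 against 52.8, 52.7 and 46.2 CPM (1.22 ± 0.28 SE, edgeR adjusted p 0.0214). ETV5 was almost level within each group. The related ETV4 had 14.8, 10.7 and 12.9 against 53.5, 28.8 and 21.2 CPM and the feedback inhibitor SPRY1 30.1, 34 and 26.9 against 106, 49.5 and 67.4 CPM, both apart but with edgeR adjusted p values of 0.135 and 0.104. The immediate targets EGR1 (−1.15) and FOS (−0.51) and the phosphatase DUSP6 (0.42) were not called. The ETV1 call was lost without treated TNNI1 or TNNT2 or untreated WT or TNNT2 (edgeR adjusted p up to 0.142) and the ETV5 call in all fits but that without treated WT (up to 0.0983), and ETV5 overlaps DGKG on its strand.

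**Figure D3:**
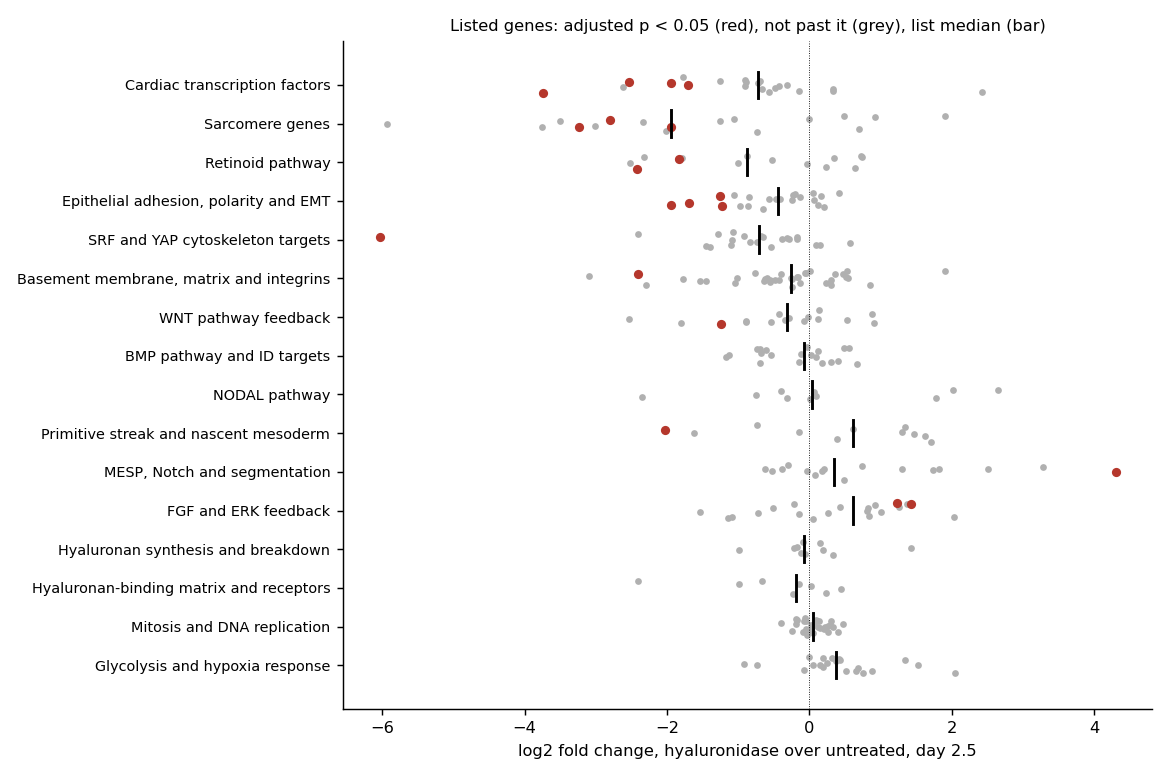
Log2 fold change of hyaluronidase over untreated for the tested genes of 16 lists, 1 point per gene (red, adjusted p under 0.05; grey, not past it), with the median of each list as a bar. Red points lie at negative values for cardiac factors, sarcomere, retinoid and polarity genes and at positive values for FGF and ERK feedback and for MESP2.

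Several of the largest decreases were in genes with almost no counts in the treated libraries. SEMA3C (ENSG00000075223, chromosome 7, 80742538 to 80922359), a secreted semaphorin that guides cardiac outflow tract cells, had 6.13, 25.9 and 29.2 CPM in untreated libraries and 0 counts in all 3 treated ones, at least 9.67-fold lower with a floor of 3 counts per library (edgeR adjusted p 0.000733). FYB2 (ENSG00000187889, chromosome 1, 56718804 to 56819696), an adaptor protein related to the T-cell adaptor FYB1, had 43.9, 51 and 67.9 against 0.686, 0.799 and 0 CPM, a ratio of summed counts of 117 (95% counting interval 32.1 to 972) (edgeR adjusted p 3.17e-05). Such intervals cover counting error only. CBLN2, a secreted cerebellin, had 9.19, 19.7 and 26.9 against 0.686, 0 and 0.625 CPM (ratio 39 (95% counting interval 10.5 to 327), edgeR adjusted p 0.00605). All 3 calls held in every fit without 1 library, but that of CBLN2 was lost without both WT or both TNNT2 libraries (edgeR adjusted p up to 0.191).

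The rest of the 15 strongest decreases were of mixed function. Calcium and second messenger genes were CALB2, the calcium-binding protein calretinin (23.3 to 28 against 0 to 1.87 CPM, −4.40), GUCY1A1, a subunit of the nitric oxide receptor (8.17 to 34.2 against 0.625 to 1.37 CPM, −4.25), ADCY5, an adenylyl cyclase (6.17 to 34.9 against 0.799 to 1.87 CPM, −3.77), and GRIN2A, an NMDA receptor subunit (7.29 to 10.2 against 0 to 1.37 CPM, ratio 19.1 (95% counting interval 4.97 to 162)). Matrix genes were MATN2, matrilin 2 (9.70 to 12.5 against 0 to 1.25 CPM, ratio 15.7 (95% counting interval 5.08 to 78.4)), and THBS1, thrombospondin 1, with 3.57 to 7.15 CPM against 0 counts in all treated libraries, at least 2.58-fold lower. All of these had groups apart, which the rule for naming them required, and their edgeR adjusted p values ran from 0.000733 (MATN2) to 0.0373 (THBS1). THBS1 was the 1 called gene of 22 tested SRF and YAP targets (median −0.71), and its call was lost in 5 of the 6 fits without 1 library, all but that without untreated TNNI1 (edgeR adjusted p up to 0.163). ADCY5 lost its call in 4, those without any 1 treated library or without untreated WT (up to 0.124), GRIN2A without treated TNNT2 (0.118) and CALB2 without treated TNNI1 (0.0523).

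ICA1, a vesicle protein (11.7 to 23.6 against 0.686 to 1.87 CPM, −3.74), AFAP1L2, an actin-associated adaptor (40.9 to 113 against 2.06 to 18.4 CPM, −3.48), EXPH5, a RAB27 effector (6.64 to 11.6 against 0 to 1.37 CPM, ratio 12.7 (95% counting interval 4.07 to 64.1)), PGA5, a pepsinogen (8.05 to 35.7 against 0.799 to 1.37 CPM, −4.29), and CYP2T1P, a cytochrome P450 pseudogene (12.3 to 25.8 against 0.799 to 1.87 CPM, −3.66), completed the 15, among which TBX5 also counts. Their edgeR adjusted p values ran from 9.94e-05 (ICA1) to 0.019 (EXPH5). EXPH5 lost its call in every fit without 1 library except that without untreated TNNI1 (edgeR adjusted p up to 0.109), AFAP1L2 without treated TNNI1 or TNNT2 (up to 0.0528) and CYP2T1P without treated TNNI1 or untreated TNNT2 (up to 0.0715). PGA5 has near-identical copies, and MATN2, THBS1 and CYP2T1P overlap a gene on the other strand, so these counts are uncertain.

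Of the 32 genes that rose, the largest named protein-coding change was in MESP2 (ENSG00000188095, chromosome 15, 89760591 to 89778754), a basic helix-loop-helix factor of nascent mesoderm. MESP2 had 4.60, 2.68 and 1.12 CPM in untreated and 85.8, 35.1 and 56.2 CPM in treated libraries, 19.7-fold higher (4.30 ± 0.66 SE, edgeR adjusted p 0.00147). The lowest treated library lay well above the highest untreated one. It was the 1 called gene of 16 tested in the MESP, Notch and segmentation list (median 0.35), in which MESP1 had 5.11, 2.68 and 2.24 against 41.9, 35.1 and 27.5 CPM (edgeR adjusted p 0.0611, and 0.0140 with line as a block) and TBX6, a paraxial mesoderm factor, 2.04, 0.894 and 2.80 against 17.2, 7.19 and 11.9 CPM (adjusted p 0.271). The earlier streak factors EOMES (115, 59 and 97.6 against 327, 134 and 322 CPM) and MIXL1 (3.57, 7.15 and 12.3 against 21.3, 24 and 28.1 CPM) were apart between the groups and not called (edgeR adjusted p 0.53 and 0.155). The summed level of the streak markers TBXT, MIXL1 and EOMES was 66.2 to 119 CPM in untreated and 158 to 356 CPM in treated libraries. EOMES, which was not called, made up most of this sum in every library, so the sum adds little to its values.

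CHRNA3 (ENSG00000080644, chromosome 15, 78593052 to 78621295), a nicotinic acetylcholine receptor subunit, had 3.57, 0.894 and 2.80 CPM in untreated and 48.7, 16 and 40.0 CPM in treated libraries (3.67 ± 0.59 SE, edgeR adjusted p 0.00117). Its cluster neighbour CHRNB4, a partner subunit, had 4.09, 3.58 and 0.561 against 28.1, 14.4 and 17.5 CPM and an edgeR adjusted p of 0.121, while CHRNA5, the third gene of the cluster, had a log2 fold change of 0.43 and was not called. CHRNA3 was the 1 called gene of 3 tested nicotinic receptor subunits (median 2.82), a list that holds few genes. CHRNA3 overlaps CHRNA5 on the other strand. The MESP2 and CHRNA3 calls held in all 6 fits without 1 library. Both were lost without both TNNT2 libraries (edgeR adjusted p 0.0829 for MESP2 and 0.0588 for CHRNA3).

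CDCA7L, a MYC-interacting nuclear protein, had 7.15, 3.58 and 7.85 against 46.7, 15.2 and 48.1 CPM (2.46 ± 0.43 SE, edgeR adjusted p 0.00215) and also held in all 6. Its call was lost without both TNNI1 or both TNNT2 libraries. FGD5 and VAV3 rose from very low levels: FGD5, best known in endothelium, from 0 to 1.53 to 6.86 to 21.6 CPM (3.71, edgeR adjusted p 0.0234), and VAV3 from 0 to 3.57 to 4.79 to 24.7 CPM (3.15, edgeR adjusted p 0.0234). FGD5 was highest in the treated WT library and VAV3 lowest there. DISC1, a scaffold protein (0.894 to 1.68 against 4.79 to 9.37 CPM), MIR210HG, the host transcript of the hypoxia-induced miR-210 (2.55 to 4.47 against 8.79 to 26.1 CPM), and the unnamed gene ENSG00000272970 (0 counts in untreated libraries, 2.06 to 5.59 CPM in treated ones, at least 1.93-fold higher) had edgeR adjusted p values from 0.0362 to 0.0492. ROBO1, the SLIT receptor, had 73, 70.6 and 62.8 against 179.8, 97.5 and 131 CPM (0.94, edgeR adjusted p 0.0373) and with SEMA3C made up the called genes among 26 tested of axon guidance (median −0.04). These smaller calls were fragile: FGD5 lost its call without treated WT, untreated WT or untreated TNNT2, VAV3 without treated TNNI1 or TNNT2 or untreated WT or TNNT2, DISC1, MIR210HG and ROBO1 in every fit without 1 library except that without treated WT, and ENSG00000272970 in all 6 (edgeR adjusted p up to 0.177, 0.172, 0.163, 0.426, 0.329 and 0.166). CDCA7L and DISC1 overlap other genes.

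Metallothioneins, small proteins that bind zinc and copper and are induced by metals, formed a list chosen after the values were seen, in which 2 of 5 tested genes rose, 0 fell and the median was 1.66. MT1G (ENSG00000125144, chromosome 16, 56666731 to 56668065) had 7.66, 4.47 and 4.49 CPM in untreated and 49.4, 58.3 and 84.9 CPM in treated libraries, 11-fold higher (3.46 ± 0.53 SE, edgeR adjusted p 0.00193). MT2A had 23, 23.3 and 39.3 against 94.7, 88.7 and 167 CPM (1.98 ± 0.50 SE), with an edgeR adjusted p of 0.04998, just under the threshold. Every treated library lay above every untreated one for both genes. MT1E had 8.68, 10.7 and 5.61 against 29.5, 5.59 and 45.6 CPM, MT1F 11.2, 15.2 and 7.29 against 10.3, 25.6 and 20.0 CPM and MT1X 38.8, 30.4 and 49.9 against 54.9, 119.8 and 66.8 CPM, and none of these 3 was called. The zinc transporter SLC30A3, named after its values were seen, fell (92.4, 79.6 and 187 against 6.18, 19.2 and 9.99 CPM, −3.41, edgeR adjusted p 0.000386). The MT1G call held in all 6 fits without 1 library and was lost without both TNNT2 libraries (edgeR adjusted p 0.204). MT2A lost its call in all 6 but that without treated WT (edgeR adjusted p up to 0.283). Near-identical copies make metallothionein counts uncertain.

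The MT2A promoter is shown because metals act on these genes through repeated metal response elements. The 250 bases upstream of the RefSeq MT2A start on GRCh38.p14 (chr16:56608334-56608583, plus strand) hold 7 matches, in capitals. The motif searched was TGCACNC or TGCGCNC on both strands, where N is any base, and 24.8% of 34788 windows hold at least 1 match.
MT2A: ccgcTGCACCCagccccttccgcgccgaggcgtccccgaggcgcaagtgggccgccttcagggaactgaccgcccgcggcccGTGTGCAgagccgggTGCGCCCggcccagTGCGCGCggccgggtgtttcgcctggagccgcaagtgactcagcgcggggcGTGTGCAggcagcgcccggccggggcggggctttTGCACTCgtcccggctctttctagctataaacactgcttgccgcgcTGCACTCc

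Further lists gave no calls in the main fit. In edgeR 0 of 30 tested genes of mitosis and DNA replication, 0 of 16 of p53, apoptosis and stress, 0 of 7 of inflammation, 0 of 20 of the BMP pathway, 0 of 10 of the NODAL pathway, 0 of 21 of proteoglycan synthesis, 0 of 21 of glycolysis and hypoxia, 0 of 17 of sterol synthesis and 0 of 11 of pluripotency were called. At an unadjusted p under 0.05 the counts were 0, 1, 2, 5, 4, 3, 5, 5 and 2 in the same order, and DESeq2 called 0, 0, 0, 1, 1, 0, 3, 0 and 1. With line as a block edgeR called 2 BMP, 1 NODAL and 3 glycolysis genes. Of all tested genes 1.15% were called and 9.22% had an unadjusted p under 0.05. Lists this short would hold few calls at that share, so 0 calls do not mark where the response ended. The median of the mitosis list was 0.05. Of the glycolysis list 17 of 21 genes had a positive sign, led by ENO2 (23, 11.6 and 10.1 against 117, 39.9 and 38.1 CPM, edgeR adjusted p 0.201) and LDHA (195, 93.9 and 97.6 against 476, 284 and 255 CPM, edgeR adjusted p 0.135).

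Markers checked the tissue and the other cell types the aggregates could hold. All 11 cardiac mesoderm markers had counts, with a summed level of 1624 to 2483 CPM in untreated and 1277 to 2568 CPM in treated libraries. Pluripotency markers summed to 53.3 to 68.0 against 55.6 to 80.7 CPM. Endothelial markers summed to at most 3.43 CPM in any library with CDH5 at 0, and SOX1 and PAX6 of neural ectoderm, WT1 and UPK3B of epicardium and TTR of endoderm were at 0 in all 6. Endoderm markers ranged from 3.58 to 37.3 CPM in untreated and 0.799 to 46.7 CPM in treated libraries. Of 12 tested genes of endothelium and blood 1 rose, FGD5, 9 had a positive sign, 4 had an unadjusted p under 0.05 in edgeR, all higher, and the groups were apart for 6 (median 0.85). The summed level of this list of 19 was 208 to 318 CPM in untreated and 396 to 462 CPM in treated libraries, and CDH5 and EMCN were at 0 in all 6. Its part in the other results was not tested. In edgeR 0 genes were called of 11 tested in endoderm, 3 in neural and surface ectoderm, 4 in amnion and trophoblast and 6 in epicardium and fibroblast, where 3, 0, 1 and 0 had an unadjusted p under 0.05 and DESeq2 called 0, 0, 1 and 0.

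What the called genes do without enzyme over the same day was read in the wild-type libraries of the genotype arm, 5 at day 1.5 and 6 at day 2.5, since the enzyme arm has no day 1.5 library. Over that step 30.1% of 13797 tested genes were called, 15% higher and 15.1% lower. Of the 114 genes that hyaluronidase lowered, 91 rose in the wild-type step (79.8%), and 3 fell, GATA6, MCC and THBS1. Among all tested genes with a negative enzyme effect 20.4% rose. Of the 32 genes that hyaluronidase raised, 13 fell in the wild-type step (40.6%) and 5 rose, ADD3, BOC, MAPK10, SESN3 and TRPM4. Without the treated WT library the share for lowered genes was 134 of 171 (78.4%).

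TBX5 had 0 counts in all 5 wild-type libraries at day 1.5 and 10.5 to 65 CPM at day 2.5. RARB likewise went from 0 to 5.86 to 19.5 CPM. CRB2 and FYB2 also had 0 counts in all 5 at day 1.5, and 115 to 286 and 10.5 to 55.1 CPM at day 2.5. MESP2 ran the other way, from 39.3 to 105 CPM at day 1.5 to 1.97 to 8.02 CPM at day 2.5 (−4.27, edgeR adjusted p 1.47e-09), and the treated libraries at day 2.5, at 35.1 to 85.8 CPM, overlapped the wild-type range of day 1.5. CHRNA3 (−2.44), CDCA7L (−3.77), VAV3 (−2.01) and ROBO1 (−1.31) fell in the same step. MT1G (0.76) and MT2A (0.25) were not called in it, nor was ETV1 (0.48). PDGFRA (2.31), LAMA1 (2.65), ACTC1 (1.90) and MYL4 (5.59) rose. The 2 arms hold different libraries, and a difference between arms in handling cannot be told apart from other differences between them.

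**Figure D4:**
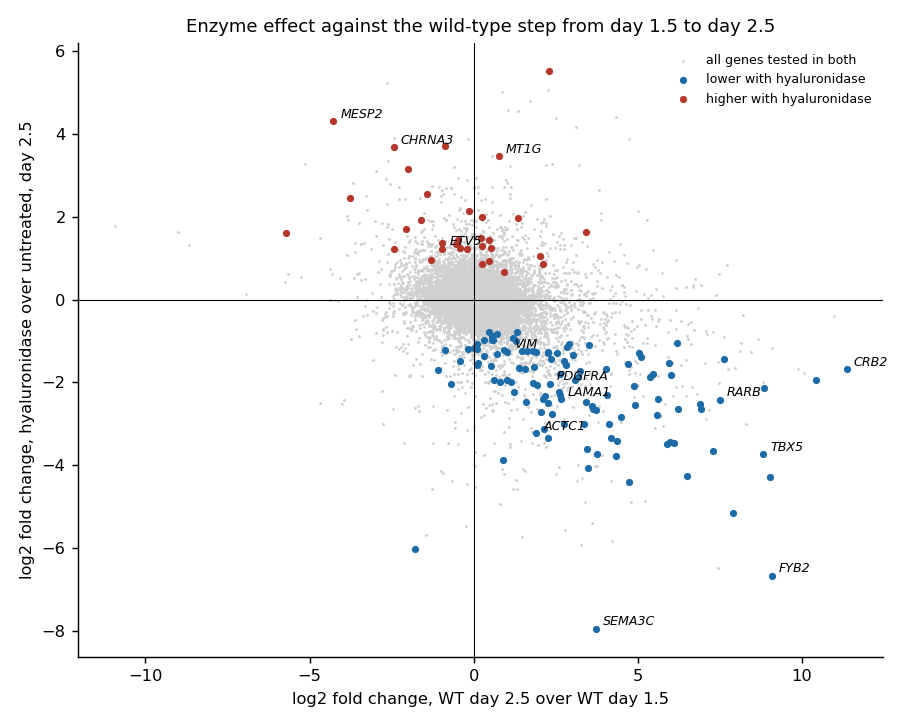
Log2 fold change of hyaluronidase over untreated at day 2.5 (vertical) against the wild-type step from day 1.5 to day 2.5 (horizontal), 1 point per gene, with called genes in blue (lower) and red (higher). Most blue points lie to the right of 0, among them TBX5, FYB2 and CRB2, and MESP2 and CHRNA3 lie at the upper left.

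The same genes were read in the HAS2 knockout (KO) at day 2.5, where 6 KO and 6 wild-type libraries gave 137 called genes of 13797 (0.993%). Of the KO libraries 3 come from clone cl4 and 1 each from cl14, cl46 and cl51, so the 6 are not independent clones and p-values may be too small. Library numbers fall in 3 sets, with 1 KO and 2 wild-type libraries in the first and in the second and 4 KO and 2 wild-type in the third, too few for a test within each. With the set as a block 292 genes were called, 135 of them among the 137. Of the 114 genes lowered by hyaluronidase 99 had a negative KO effect (86.8%), against 55.6% of all tested genes with a negative enzyme effect, and 26 were called lower in KO and 0 higher, where 0.5% of all genes were called lower. Of the 32 genes raised by hyaluronidase 26 had a positive KO effect, against 3504 of 6255 tested genes with a positive enzyme effect. Among the 32, 4 were called higher in KO, MESP2, CHRNA3, MIR210HG and ROBO1, where 0.493% of all genes were. The 31 genes called in both make up 21.2% of the enzyme calls and 22.6% of the KO calls, and 30 had the same direction. The exception was MT2A. The 2 comparisons share no library. HAS2 itself had a KO effect of −0.23 (edgeR adjusted p 0.77), and reads at the 3′ end do not check the knockout label, so directions follow the labels.

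TBX5 had 10.5 to 65 CPM in wild-type and 3.61 to 14.6 CPM in KO libraries (−2.06 ± 0.35 SE, edgeR adjusted p 0.00163), overlapping at the edge of the ranges, where the enzyme gave −3.74. ACTC1 had 86.3 to 274 against 21.7 to 72.2 CPM (−2.07 ± 0.41 SE, edgeR adjusted p 0.00409), without overlap. MESP2 had 1.97 to 8.02 against 20.5 to 64.2 CPM, also without overlap (3.36 ± 0.45 SE, edgeR adjusted p 3.06e-05). Further genes lower in both were SEMA3C (−2.12 in KO), CBLN2 (−3.91), MYL4 (−1.94), PKP2 (−1.63), CDH3 (−1.56), CRB2 (−1.02), WLS (−0.87), VIM (−0.86) and FZD4 (−0.71).

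Whether the enzyme and KO effects differ was tested as the difference of the 2 effects in a single fit of all 65 libraries. Of 14047 tested genes 13 passed (0.0925%), 11 with a lower (0.0783%) and 2 with a higher value for the enzyme (0.0142%), and 8 of the lower and both of the higher ones were called in the enzyme comparison, with which the test shares its libraries. RARB had 5.86 to 19.5 CPM in wild-type and 9.76 to 30.1 CPM in KO libraries, so its KO effect was 0.39 (edgeR adjusted p 0.69), and the difference from the enzyme effect was −2.78 ± 0.60 (SE, edgeR adjusted p 0.0338). FOXP1 (0.45 in KO, difference −2.35, edgeR adjusted p 0.00411), PARD3B (0.81 in KO, difference −2.77), NCAM1, a neural cell adhesion molecule (1.00 in KO, difference −1.96), and FYB2 (−0.94 in KO, difference −5.74, edgeR adjusted p 0.0092) also had lower values for the enzyme than for KO. For EMP2 and COL2A1 both perturbations gave a called decrease, −3.00 and −1.15 for EMP2 and −3.35 and −0.77 for COL2A1, and the differences of −1.81 and −2.54 passed (edgeR adjusted p 0.00767 and 0.00822).

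Metallothioneins gave both differences in the other direction. MT2A had 14.3 to 52.9 CPM in wild-type and 5.75 to 15.9 CPM in KO libraries (−1.66 ± 0.41 SE, edgeR adjusted p 0.0291), and its effects differed by 3.69 ± 0.70 (SE, edgeR adjusted p 0.00709). MT1G had 1.53 to 12.1 against 1.91 to 10.8 CPM (−0.96, not called), and its effects differed by 4.48 ± 0.78 (SE, edgeR adjusted p 0.00709). The count of 13 rested on few libraries: it was 0 without treated TNNT2 (666 genes with an unadjusted p under 0.05 in edgeR), 2 without treated TNNI1, 22 without treated WT and 7 without untreated WT, while DESeq2 on all libraries gave 25.

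**Figure D5:**
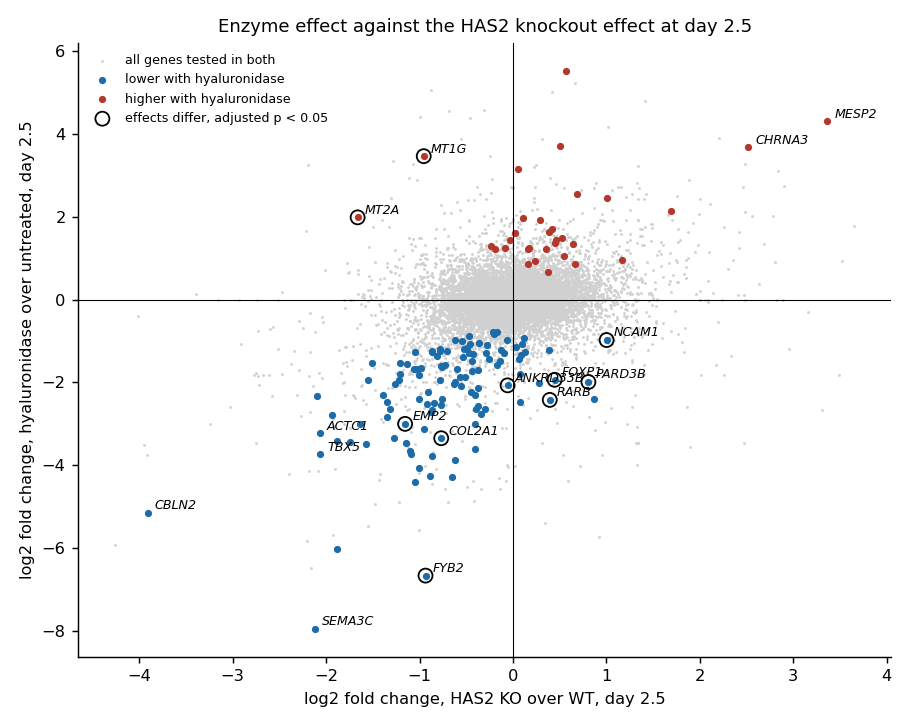
Log2 fold change of hyaluronidase over untreated (vertical) against that of HAS2 KO over wild type (horizontal) at day 2.5, 1 point per gene, with genes called in the enzyme comparison in blue (lower) and red (higher) and those whose 2 effects differed circled. TBX5, ACTC1, SEMA3C and CBLN2 lie low on both axes and MESP2 and CHRNA3 high on both, while the circled MT1G and MT2A lie at the upper left.

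The enzyme effect at day 2.5 was set against that at day 4.5 in cardioids treated from day 1.5 to day 4.5, per the titles. The enzyme was thus not removed between the 2 days. Each day 4.5 group held 3 libraries, and the untreated controls were of the same day. At day 4.5 443 genes were called (3.48% of 12748), 136 higher (1.07%) and 307 lower (2.41%). Of the 146 genes called at day 2.5, 29 were called at both days, which is 19.9% of the day 2.5 calls and 6.55% of the day 4.5 calls, and 26 of these kept their direction. LAMA1 (−2.41 at day 2.5, −1.86 at day 4.5), ACTC1 (−3.23 and −3.16), MYL4 (−2.80 and −2.74), TBX5 (−3.74 and −1.66), EMP2 (−3.00 and −1.83) and COL2A1 (−3.35 and −2.70) were lower at both. LGR4 (−1.11 and 1.37), ANKRD33B (−2.07 and 0.99) and RGS2 (−1.55 and 2.76), a regulator of G protein signalling, were called lower first and higher later. At day 4.5 GATA6 (0.02), FOXP1 (0.10), PDGFRA (0.36), CRB2 (0.13), MESP2 (2.53) and MT1G (0.58) were not called. The change of the effect between the days, tested as a contrast, passed for 90 genes (0.706%), 62 with a higher (0.486%) and 28 with a lower value at day 4.5 (0.22%). Of these, 34 were among the genes lowered at day 2.5 and 6 among those raised. The count was 40 without treated TNNT2 of day 2.5, 145 without treated WT of day 2.5 and 45 to 51 without treated TNNI1, untreated WT or untreated TNNT2 of day 2.5 or treated TNNT2 or untreated TNNI1 of day 4.5.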

How the data were processed

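Libraries came from a 3′ end mRNA kit, per the labels. The deposited table gives whole-number counts per Ensembl gene, made with featureCounts (Subread 1.6.2) on hg38, per the submitters' processing notes. The aligner, the annotation release, the strand setting and the treatment of reads that match several genes are not given in the sources used here, so counts of overlapping genes and close copies are uncertain. All 58735 gene IDs occur in GENCODE 29, which gave positions on GRCh38, and 4 columns that match no listed sample were not used.

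Counts were fitted in edgeR 4.0.16 (R 4.3.3) with TMM scaling, filterByExpr (minimum count 10) and a robust quasi-likelihood model with 1 mean per group over the 24 libraries of the enzyme arm, which share 1 estimate of the spread. The genotype arm (41 libraries) and all 65 libraries were fitted in the same way. The script was tested on simulated counts with less spread than the real ones, no line effect and changes only in well-counted genes. That test therefore does not check calls near 0 counts or calls that hang on a single library. DESeq2 1.42.0, RLE scaling, no filter, fits of fewer libraries and a line block were alternatives, and the fit of the 6 libraries with the line block was chosen after seeing the data. Equal replicate numbers mark the same line per the titles, which is where the pairing comes from. Residuals of same-line pairs correlated at 0.373, 0.278 and −0.102, and those of other pairs at −0.47 to 0.281. Residuals around a mean of 3 libraries are tied to each other, so these correlations cannot decide whether the pairing matters. With line as a block 228 genes were called instead of 146, and 206 instead of 90 in the fits of the 6 libraries. Gene overlaps were searched among protein-coding genes only, except GATA6-AS1. Promoters are RefSeq windows of GRCh38.p14, read for 3 named genes. Named genes are the 10 highest and 15 lowest fold changes among called genes with groups apart, the same sign in all lines and an absolute log2 fold change of at least 1, every called member of 28 gene lists, and HAS2. The comparison and all lists were chosen with earlier results of these data known.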

Additional observations from a re-analysis of the deposited data

Results flagged for a closer look

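The enzyme effect differed between day 2.5 and day 4.5 for 90 genes, by a test of the change itself (edgeR quasi-likelihood, Benjamini-Hochberg adjusted, with untreated controls of each day). The day 4.5 cardioids had been treated from day 1.5 to day 4.5, so exposure was longer at the later day. Among the named genes the change of the log2 effect was positive for FYB2 (7.29 ± 1.16 SE, edgeR adjusted p 0.00259), EXPH5 (5.16), RARB (3.05 ± 0.62 SE, edgeR adjusted p 0.0165), PDGFRA (2.40 ± 0.48 SE, edgeR adjusted p 0.0165), DHRS3 (2.24), FOXP1 (2.03), CRB2 (1.82), FZD4 (1.81) and GATA6 (1.72). All of these were lower with hyaluronidase at day 2.5, and none was called at day 4.5. The change was negative for DISC1 (−3.96), which was higher at day 2.5 and not called at day 4.5. For ENSG00000272970 the fitted change was −7.16, but its untreated libraries of day 2.5 held 0 counts, so this value depends on the fit's handling of 0 and is not a measured size. A gene called at day 2.5 enters this test with the same day 2.5 libraries.

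In the genotype arm the levels of 6 genes were examined in 3 groups each, and in 4 of these 18 cases 1 library lay apart from the other 5 of its group, by the gap to its nearest neighbour relative to the range of the group. In KO at day 2.5 the highest value was 72.2 CPM for ACTC1, 30.1 CPM for RARB and 10.8 CPM for MT1G, each taken for its gene alone, and in the wild type at day 2.5 it was 8.02 CPM for MESP2. Chance alone marks about 1 group in 20.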

How the results depend on the processing

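Depth limited low genes: a gene at 0 in 3 libraries of this depth can only be given a bound, and the 3 libraries per group made calls depend on single libraries. Of 43 named called genes 6 passed in every alternative that tested them (FYB2, ICA1, LAMA1, MATN2, SEMA3C and TBX5) and 0 changed sign. All 43 passed with line as a replicate block in the fit of the 24 libraries. In the 6 libraries with the block, 106 of the 146 calls were kept, and RARB, ETV1, EXPH5, FGD5, GRIN2A, MIR210HG, PARD6B and ROBO1 lost theirs. The called genes at day 2.5 numbered 146 (114 lower, 32 higher). They were 241 with DESeq2 (176 and 65), 290 without a filter on low counts (222 and 68) and 90 in a fit of only the 6 libraries (64 lower). With the replicate block they were 228 (172 and 56), and 206 in the 6 libraries with the block (147 and 59). Leaving out 1 library, or both of a line, gave 24 to 225 called, 22 to 172 lower and 2 to 53 higher. The change from day 2.5 to day 4.5 (90 genes) gave 187 with DESeq2, 269 without a filter, 48 with only the groups compared, 148 with the replicate block and 40 to 145 without 1 library. The difference between enzyme and KO effects (13 genes) gave 25 with DESeq2, 42 without a filter, 38 with the replicate block and 0 to 22 without 1 library (0 without treated TNNT2, where edgeR gave 666 genes with an unadjusted p under 0.05). The KO effect (137 genes) gave 232 with DESeq2, 96 without a filter and 292 with the replicate block, and the wild-type step (4153 genes) 2736 with only its groups. The log2 fold change of HAS2 was 0.15, −0.01 in the 6 libraries with the block, and −0.52 to 0.42 without 1 library or 1 line. The cause of these shifts was not tested.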

Other observations

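Further called genes, chosen after their values were seen, carry roles that the lists did not cover. RBM20, the splicing factor of titin, had 57.7, 99.3 and 79.1 CPM in untreated and 13, 29.6 and 6.87 CPM in treated libraries (−2.31 ± 0.38 SE, edgeR adjusted p 0.00149), and ALPK3, a muscle kinase, 154, 179 and 214 against 60.4, 102 and 71.2 CPM (−1.26, edgeR adjusted p 0.00149). Every treated library lay below every untreated one in both genes. CCBE1, a secreted protein of lymphatic growth that is also made by cardiac progenitors, had 20.9, 27.7 and 25.2 against 4.80, 4.79 and 2.50 CPM (−2.63, edgeR adjusted p 0.00938). Antisense GATA6-AS1 had 133, 169.9 and 202 against 33.6, 59.9 and 33.7 CPM (−2.03, edgeR adjusted p 0.00159) and overlaps GATA6 on the other strand, so the 2 counts may share reads.

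Adhesion and matrix genes were found on both sides. FERMT2, the integrin activator kindlin-2, rose from 184, 166 and 146 to 438, 324 and 419.7 CPM (1.22 ± 0.22 SE, edgeR adjusted p 0.00331), and ADAMTS9, a protease that cuts versican, rose from 88.3, 84.1 and 99.3 to 274, 141 and 245 CPM (1.23 ± 0.27 SE, edgeR adjusted p 0.0151). SVEP1, a large matrix protein, fell from 14.8, 33.1 and 23.6 to 0, 3.99 and 2.50 CPM (−3.46, edgeR adjusted p 0.0258), and EMILIN2, an elastic fibre protein, from 75.1, 123 and 136 to 27.5, 36.7 and 41.8 CPM (−1.69, edgeR adjusted p 0.00117). LRP2, a large endocytic receptor of epithelia, also fell from 75.6, 131 and 142 to 14.4, 51.9 and 26.9 CPM (−1.94, edgeR adjusted p 0.0306). The calls of RBM20, ALPK3, GATA6-AS1, FERMT2 and EMILIN2 held in all 6 fits without 1 library, but those of RBM20, LRP2 and SVEP1 were lost in the fit of only the 6 libraries. Without both TNNT2 libraries those of RBM20, ALPK3, GATA6-AS1 and FERMT2 were also lost. That of CCBE1 was lost without treated TNNI1 or TNNT2 (edgeR adjusted p up to 0.0886), that of ADAMTS9 also without untreated TNNI1 or WT (up to 0.124), and those of SVEP1 and LRP2 without treated TNNI1 or TNNT2 or untreated WT or TNNT2 (up to 0.169 and 0.233).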
